A study of Mus musculus with 4 samples.

Results

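Dense clusters of shared open-chromatin summits were examined in the mouse dentate gyrus. Summits (the single base at which a peak of sequencing reads is highest) of 4 libraries were joined to 1 region where neighbours lay within 250 bp, which gave 82899 regions. Of these, 26592 held a summit of every library, and 26054 of those lay on numbered autosomes and are called shared regions here. Each was assigned by its start to a 50 kb window, and windows with 5 or more shared regions were kept. The rule left 889 regions in 134 dense windows, of which 70 regions in 4 windows lay within 200 kb of the first assembled base of a chromosome, near 3 Mb, and 819 regions in 130 windows lay elsewhere. Presence in all 4 lists and the number of neighbours chose the members, so their density and recurrence are descriptions and were not tested.

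The libraries came from FAIRE-seq, an assay that isolates open chromatin after formaldehyde fixation, applied to the fixed dentate gyrus of C57BL6 mice around 9 weeks old. By title 2 libraries are WT and 2 are Mbd1 KO, a knockout of the gene for a protein that binds methylated CpG sites. The sources used here do not say how the allele was made, or whether 1 animal or several went into each library. The genotype field of the labels contradicts the title of WT 1, which it calls Mbd1 KO, and of Mbd1 KO 2, which it calls WT. Libraries are therefore named by title and groups follow the titles. Mean ranks, shares of summits and counts of regions ranked higher in a group are also given by the genotype field. This holds for the members near the start and away from it as a whole. Scores and single windows, stretches, chromosomes or regions are compared by title unless stated. The lists held between 38142 and 56382 summits, and read depth is not known from them.

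In FAIRE, DNA that carries few nucleosomes escapes crosslinking to protein, stays in the aqueous phase of a phenol extraction and is sequenced. Open sites lie close together where active genes are packed tightly, as in gene families with a promoter every few kilobases. Mouse chromosomes carry their centromere at 1 end, and the unsequenced centromeric part precedes the first assembled base, next to which satellite repeats and duplicated sequence are common. Reads from repeated sequence can match several places. The sources used here do not say whether such reads were kept or an input control was used, and their part in the density of these windows was not tested. Gene annotation and sequence of the files' build, mm9, were not used here, so regions are named by mm9 coordinates (1-based) and no sequence is shown.

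Dense windows were a thin tail of the distribution. Shared regions occupied 17816 windows, of which 11988 held 1 region and 4195 held 2. Just under the threshold, 290 windows held 4 regions. Just above it, 75 windows held 5, and 18 held 6. The 2 fullest windows held 28 and 24 regions and lay at the start of chromosomes 9 and 11. Exactly 1 summit per library was found in 814 of the 819 regions away from the start and in all 70 near it, and likewise in 25108 of the 25165 other shared regions.

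**Figure D1:**
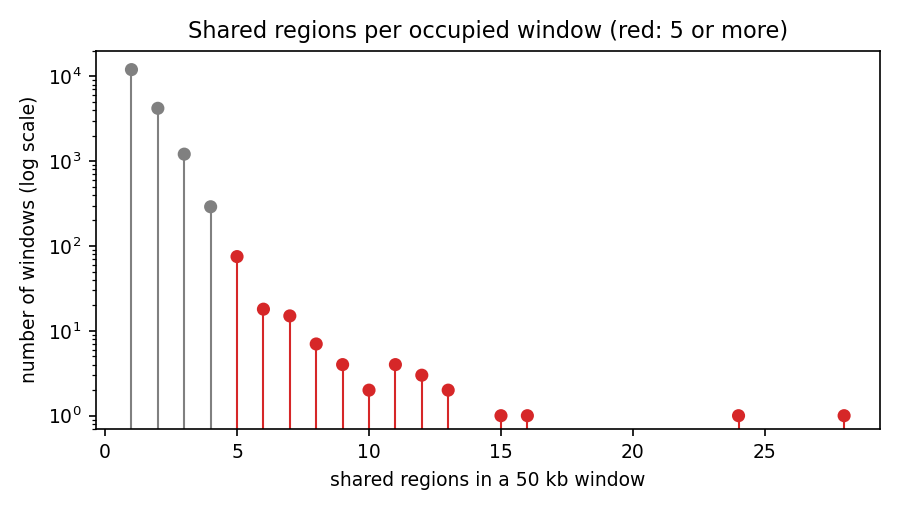
Number of 50 kb windows (vertical, log scale) by the number of shared regions in the window (horizontal), for the 17816 windows that held at least 1. Red points are the 134 dense windows, which fall from 75 windows with 5 regions to single windows with 24 and 28.

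Every numbered autosome held at least 1 dense window away from its start, but unevenly. Chromosome 1 had 16 windows with 100 regions, chromosome 8 had 14 windows with 111 regions, and chromosome 13 had 11 windows with 83 regions. Members made up 7.92% of the shared regions of chromosome 8 and 7.06% of those of chromosome 13. Chromosomes 12, 15 and 16 had 1 window of 5 regions each, under 0.5% of their shared regions. Chromosome 2, with 2098 shared regions, had 2 dense windows with 11 regions.

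Dense windows were themselves clustered. Windows whose starts lay within 1 Mb of the next, a distance chosen after the data were seen, formed 92 stretches, of which 73 were a single window and 11 held 3 windows or more. These 11 stretches held 45 windows and 357 regions, 40.2% of all members. The stretch with the most windows was on chromosome 8 (19650001 to 20050000), with 7 windows and 71 regions. It was followed by chromosome 1 (85050001 to 85350000) with 6 windows and 42 regions, and chromosome 5 (14900001 to 15200000) with 5 windows and 53 regions. Chromosome 13 had a pair of stretches with 4 windows each, from 21250001 to 22150000 with 30 regions and from 23500001 to 23850000 with 38. The largest cluster of mouse histone genes also lies on chromosome 13; whether these windows cover it was not tested.

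Near the assembled start, density was a property of 3 chromosomes. Within 200 kb of the first base, chromosome 9 held 28 shared regions, chromosome 11 held 39 and chromosome 18 held 6. The other 16 autosomes held 20 such regions together, between 0 and 3 each, and 5 of them held none. On chromosome 9 the 28 regions lay between 3001777 and 3038010, with a median of 933 bp from one start to the next. On chromosome 11 the first window (3000001 to 3050000) held 13 regions and the next (3050001 to 3100000) held 24, with median spacings of 1166 and 1524 bp. The chromosome 18 window (3000001 to 3050000) held 5 regions. A dense window on chromosome 17 (3200001 to 3250000, 5 regions) lay just outside the 200 kb limit and was counted with those away from the start.

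The 4 libraries called these near-start windows in similar numbers. The rule requires a summit of every library in each shared region, so this similarity was largely built in. On chromosome 9 the window held 30 summits in WT 1, 32 in WT 2, 31 in Mbd1 KO 1 and 30 in Mbd1 KO 2. The fuller window of chromosome 11 held 27 in WT 1, 32 in WT 2, 25 in Mbd1 KO 1 and 31 in Mbd1 KO 2. In neither of these windows did the titled groups part. The first window of chromosome 11 held 15 and 16 summits in the WT libraries and 14 in each Mbd1 KO library, so they parted narrowly there. On chromosome 18 the counts were 5 in WT 1, 7 in WT 2 and 5 in each Mbd1 KO library. Single regions ranged widely in score on chromosome 9, where the score is the deposited −log10 value of each summit. The weakest (3013299 to 3013315) scored 5.26 in WT 1, 5.63 in WT 2, 4.99 in Mbd1 KO 1 and 5.31 in Mbd1 KO 2. The strongest (3037996 to 3038010) scored 50.5 in WT 1, 49.4 in WT 2, 54.7 in Mbd1 KO 1 and 50.05 in Mbd1 KO 2. Both stood at nearly the same height in all 4 libraries.

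To compare strength between lists of unequal length, each shared region was ranked by its score among the 26054 shared regions of a library, from 0 for the weakest to 100 for the strongest. A region of average strength thus ranks near 50 in every library. The score entered the choice of members only by being in a list.

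Being crowded was not the same as being strong. Regions in dense windows away from the start had a mean rank of 48.3 over the 4 libraries, against 50.1 for shared regions outside dense windows. The difference was −0.59 in WT 1, −0.88 in WT 2, −3.16 in Mbd1 KO 1 and −2.49 in Mbd1 KO 2, with a mean of −1.78 ± 1.24 (SD, n = 4 libraries, exact sign-flip permutation p = 0.13, two-sided, the smallest that 4 libraries allow). It turned to 1.02 where windows with 4 regions were included and to 3.25 once summits scoring under 10 were dropped. Near the start the difference was −4.01 in WT 1, −1.91 in WT 2, −7.36 in Mbd1 KO 1 and −11.9 in Mbd1 KO 2, with a mean of −6.31 ± 4.38 (SD, n = 4, exact sign-flip permutation p = 0.13, two-sided). With these settings all 4 libraries placed both sets of members below other shared regions. Away from the start this did not hold throughout, since both WT libraries placed members above others with a joining distance of 100 bp (0.80 and 0.55, mean of 4 libraries −0.29), with lists cut to the shortest length (0.72 and 0.42, mean −0.52) and with windows shifted by 25 kb (0.27 and 0.66, mean −0.79). With windows of 6 or more regions the mean was −6.37. Near the start the mean ran from −17.2 at a score of at least 10 to −3.00 at a joining distance of 1000 bp, where WT 2 was at 0.012. With 1 library left out and regions shared by the other 3, the difference was between −1.55 and −1.16 away from the start. Near the start it was −1.41 without WT 1 (WT 2 then at 3.36), −2.69 without Mbd1 KO 2, −4.68 without WT 2 and −4.71 without Mbd1 KO 1.

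From 5 regions upward, fuller windows held weaker regions on average. Away from the start, the 370 regions of windows with exactly 5 had a mean rank of 53.8, close to the 52.8 of the 1160 regions just outside the threshold in windows of 4 and above the 48.7 of the 11988 regions alone in their window. The 449 regions of windows with 6 or more had a mean rank of 43.8, and the 236 of windows with 8 or more had 40.6. Of the 23 windows with 8 or more regions, 17 (73.9%) had a mean rank under 50, against 34 of the 74 windows with 5 (45.9%). These are descriptions of the windows and were not tested. Several of the fuller windows lie in the same stretch, as on chromosome 8 (19650001 to 20050000) and chromosome 5 (14900001 to 15200000), so they are not independent counts.

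**Figure D2:**
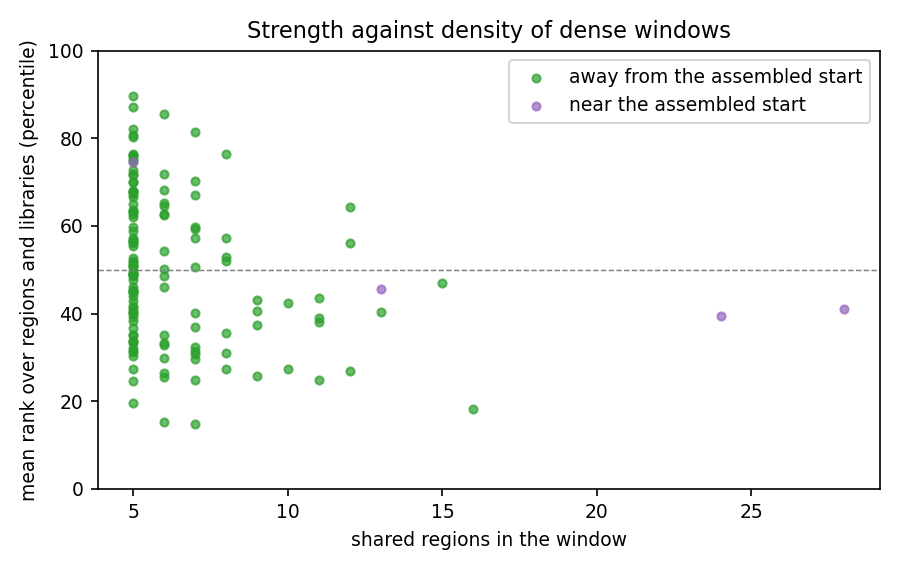
Mean rank of a dense window over its regions and the 4 libraries (vertical, percentile among shared regions) by the number of shared regions in it (horizontal), with windows away from the start in green and near it in purple; the dashed line marks 50. Windows of 5 regions spread from under 20 to 89.6, while the windows of 13 or more all lie below 50.

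Stretches of many windows differed in strength. The weakest of the 11 was on chromosome 4 (146750001 to 147050000), where 21 regions had mean ranks of 23.6 in WT 1, 22.6 in WT 2, 20.9 in Mbd1 KO 1 and 17.5 in Mbd1 KO 2, and none ranked above 75. Both stretches of chromosome 1, at 85050001 to 85350000 and at 87350001 to 87550000, were alike in this, with mean ranks of 27.8 and 26.6 and 0 of 42 and 0 of 22 regions above 75. The 71 regions of the chromosome 8 stretch had a mean rank of 30.4, with 37 below 25 but 7 above 75. Its strongest region (20020399 to 20020441) scored 73.8 in WT 1, 82.6 in WT 2, 90.5 in Mbd1 KO 1 and 83.01 in Mbd1 KO 2, and its weakest (19947367 to 19947502) 4.15, 5.37, 3.76 and 4.37 in the same order. Strong and weak regions thus stood side by side there.

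At the other end, 18 regions on chromosome 7 (51800001 to 53000000) had a mean rank of 69.1, with 10 above 75, and 16 regions on chromosome 3 (96000001 to 96350000) had 68.5, with 8 above 75. The later stretch of chromosome 13 (23500001 to 23850000) reached 61.99, and 14 of its 38 regions ranked above 75. Its strongest region (23838498 to 23838520) scored 70.9 in WT 1, 83.8 in WT 2, 101.7 in Mbd1 KO 1 and 81.9 in Mbd1 KO 2. The single window with the highest mean rank, 89.6, was on chromosome 19 (8850001 to 8900000), where all 5 regions were strong. Its mean ranks were 91.1 in WT 1, 88.3 in WT 2, 89.5 in Mbd1 KO 1 and 89.6 in Mbd1 KO 2.

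Among the 10 fullest windows away from the start, mean ranks ran from 18.2 to 64.4. The fullest, on chromosome 8 (19900001 to 19950000), held 16 regions and was the weakest of the 10. It held 22 summits in WT 1, 23 in WT 2, 27 in Mbd1 KO 1 and 24 in Mbd1 KO 2. The titled Mbd1 KO libraries had more there, but their whole lists were also longer. Those held 56382 and 49671 summits, against 38142 in WT 1 and 46651 in WT 2, so these counts give no group direction. A window on chromosome 5 (14950001 to 15000000) held 15 regions and 17 and 22 summits in the libraries titled WT against 16 and 20 in those titled Mbd1 KO, which overlap. Windows with 12 regions lay on chromosome 6 (47700001 to 47750000, mean rank 56.2), chromosome 8 (19700001 to 19750000, mean rank 26.99) and chromosome 13 (23600001 to 23650000, mean rank 64.4). The others were a second window on chromosome 5 (15100001 to 15150000, 13 regions) and 4 windows with 11 regions, on chromosome 1 (85250001 to 85300000), chromosome 8 (19750001 to 19800000 and 19950001 to 20000000) and chromosome 13 (23500001 to 23550000).

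The 5 strongest members away from the start ranked above 98 in every library. The first, on chromosome 6 (136776794 to 136776805), scored 120.2 in WT 1, 96.5 in WT 2, 118.5 in Mbd1 KO 1 and 126.96 in Mbd1 KO 2. It was followed by a region on chromosome 7 (52104378 to 52104482, mean rank 99.7) and another on chromosome 10 (80645625 to 80645638, mean rank 99.3). The remaining pair lay on chromosome 9 (44113832 to 44113937, mean rank 98.9) and chromosome 11 (69485918 to 69485959, mean rank 98.8), and all 5 were in windows of 5. The 5 weakest had mean ranks from 1.22 to 2.69 and began with a region on chromosome 7 (52959516 to 52959696). After it in order came 1 on chromosome 13 (21259986 to 21260095), 1 on chromosome 8 (19947367 to 19947502) and a pair on chromosome 4 (146803444 to 146803732 and 147022888 to 147023130). All 5 weakest lay in windows with 6 regions or more, and the 5 strongest did not. Such windows held 449 of the 819 members away from the start, and windows of exactly 5 held the other 370. This split of so few regions was not tested.

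Summits of near-start regions fell close to the same base in all 4 libraries on chromosomes 9 and 18, and less so on chromosome 11. The spread of a region, from its first to its last summit, had a median of 14 bp on chromosome 9 (quartiles 9.75 and 22.3 bp), 31 bp on chromosome 11 (quartiles 18 and 55 bp) and 11 bp on chromosome 18. Members away from the start had a median of 40 bp (quartiles 25 and 64 bp), the same median as the other shared regions (quartiles 27 and 59 bp). Other shared regions of strength similar to those of chromosomes 9 and 11, with a mean rank between 25 and 60, also had a median of 40 bp. The fuller chromosome 11 window, with 35.5 bp, came near that. The 5 regions of chromosome 18 were stronger, with a mean rank of 74.6, and were not compared with regions of similar strength. Some windows away from the start were also tight, such as those at 57650001 on chromosome 10 (17 bp) and 70450001 on chromosome 12 (18 bp). The joining distance limits this measure, so it was not tested. In the fullest window of chromosome 8 the median was 81 bp and the widest region of that window spanned 224 bp.

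**Figure D3:**
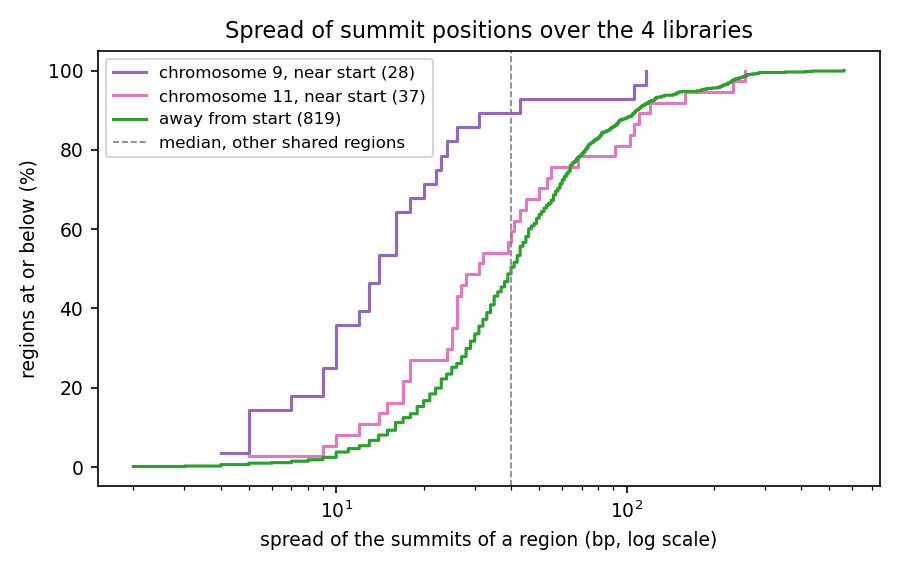
Cumulative share of regions (vertical, percent) by the spread of their summits over the 4 libraries (horizontal, bp, log scale), for the near-start regions of chromosomes 9 and 11 and the members away from the start; the dashed line is the median of other shared regions, 40 bp. The chromosome 9 curve lies to the left of the others, with a median of 14 bp.

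Ranks of near-start regions were lower in both libraries titled Mbd1 KO than in both titled WT. The mean rank over the 70 regions was 46.02 in WT 1, 48.1 in WT 2, 42.8 in Mbd1 KO 1 and 38.2 in Mbd1 KO 2. The titled groups averaged 47.1 ± 1.49 and 40.5 ± 3.25 (SD, n = 2 each), and they differed by −6.61. A two-sided exact permutation test gave p = 0.33, the lowest value open to 2 against 2. The groups did not overlap, but this permutation test cannot reach 0.05 with 2 against 2. Without Mbd1 KO 2, the lowest library, the difference was −4.12. Grouped by the genotype field it turned to 1.24 (exact permutation p = 1); the highest and the lowest library, WT 2 and Mbd1 KO 2, share a field value.

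Region by region, 34 of the 70 (48.6%) had both WT ranks above both Mbd1 KO ranks, and 3 (4.29%) had the reverse. Over all 26054 shared regions 16.0% and 16.3% were parted in these ways. Chromosome 9 gave 22 of its 28 regions with WT higher and 1 with Mbd1 KO higher, chromosome 11 gave 10 and 2 of 37, and chromosome 18 gave 2 and 0 of 5. Without the chromosome 9 window the first share was 28.6% of 42 regions. Grouped by the genotype field, 9 of the 70 had both WT ranks above and 11 had both Mbd1 KO ranks above, against 17.9% and 18.3% of all shared regions. Neighbouring regions of 1 window share their libraries and surroundings, so they are not independent counts.

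**Figure D4:**
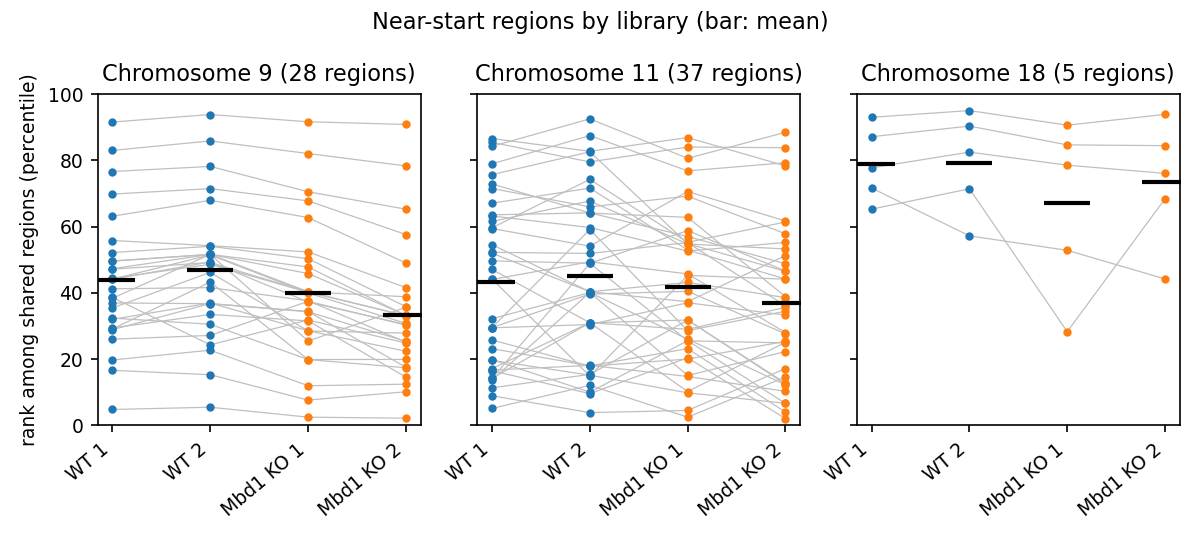
Rank of each near-start region (points joined by grey lines, 1 line per region) in the 4 libraries, with WT in blue, Mbd1 KO in orange and black bars for the mean; the vertical axis is the percentile among shared regions. On chromosome 9 the means are 43.8, 46.8, 39.99 and 33.4 from WT 1 to Mbd1 KO 2.

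The deposited scores themselves showed no such gap. Near the start the mean score was 17.4 in both titled groups, a difference of 0.0151 (exact permutation p = 1), and by score 9 of the 70 regions had WT higher in both libraries and 9 had Mbd1 KO higher, where all shared regions gave 6.97% and 30.4%. Other shared regions had a mean score of 21.3 in the WT libraries and 24.5 in the Mbd1 KO libraries. The median score over all shared regions was 15.8 in WT 1, 15.9 in WT 2, 17.2 in Mbd1 KO 1 and 18.7 in Mbd1 KO 2, a log2 difference of 0.18 between the titled groups. On chromosome 9 the medians were 13.6, 15.4, 14.2 and 13.5 in the same order. On chromosome 11 they were 13.98 and 13.7 in the WT libraries and higher, 14.8 and 14.6, in the Mbd1 KO libraries. The lower ranks are therefore relative to the other shared regions. Those scored higher in the titled Mbd1 KO libraries, while the mean score of all near-start regions together was level. Read depth, which moves such scores, is not known, and its part was not tested. With each score divided by its library's median the counts were 34 and 4 of 70, against 14.1% and 16.9% of all shared regions.

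**Figure D5:**
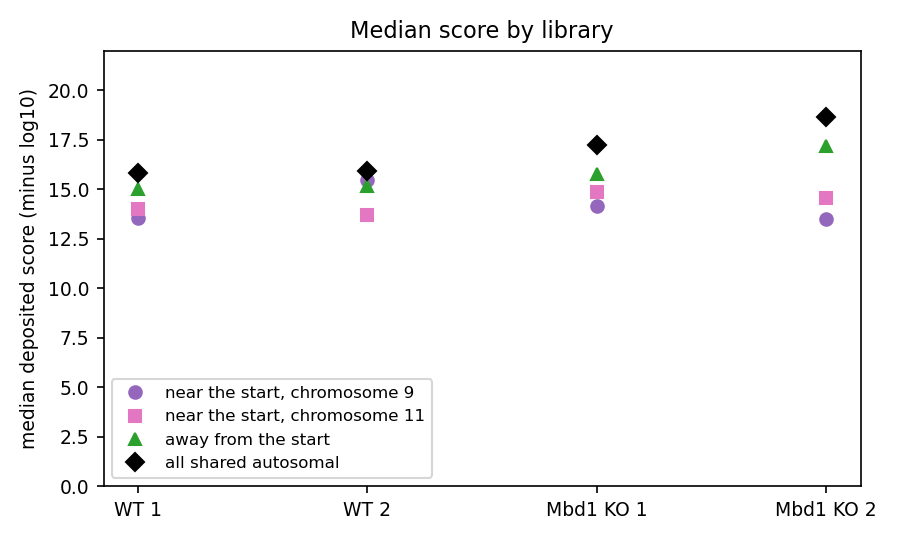
Median deposited score (vertical, −log10 value) in each library for near-start regions of chromosomes 9 and 11, members away from the start, and all shared autosomal regions. The median of all shared regions goes from 15.8 in WT 1 to 18.7 in Mbd1 KO 2. Near-start medians of chromosomes 9 and 11 stay between 13.5 and 15.4.

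Away from the start the same direction was seen at a smaller size. Mean ranks were 49.4 in WT 1, 49.2 in WT 2, 46.96 in Mbd1 KO 1 and 47.6 in Mbd1 KO 2. The titled groups averaged 49.3 ± 0.21 and 47.3 ± 0.47 (SD, n = 2 each), a difference of −2.01 (exact permutation p = 0.33, two-sided), and they did not overlap. Grouped by the genotype field, they differed by −0.19 (exact permutation p = 1). By deposited score the direction turned, with means of 21.8 for WT and 24.1 for Mbd1 KO. Of the 819 regions, 159 (19.4%) had both WT ranks above both Mbd1 KO ranks and 98 (11.97%) the reverse, against the 16.0% and 16.3% of all shared regions. By the genotype field, 143 (17.5%) had both WT ranks above and 149 (18.2%) had both Mbd1 KO ranks above. Over all shared regions those shares were 17.9% and 18.3%.

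The tilt by title was uneven among the 11 stretches. Over all shared regions 16.0% had WT ranks higher and 16.3% had Mbd1 KO ranks higher. On chromosome 5 (14900001 to 15200000), 19 of 53 regions (35.8%) had WT ranks higher and 1 (1.89%) had Mbd1 KO ranks higher. Its mean ranks were 44.4 in WT 1, 48.1 in WT 2, 38.6 in Mbd1 KO 1 and 39.8 in Mbd1 KO 2, so the titled groups did not overlap. Grouped by the genotype field, the same mean ranks did overlap. The weak stretch of chromosome 4 gave 7 (33.3%) and 1 of 21, and a stretch on chromosome 8 (71950001 to 72100000) gave 5 (27.8%) and 0 of 18. Those of chromosome 1 gave 8 (19.0%) and 3 of 42 and 6 (27.3%) and 1 of 22. The long chromosome 8 stretch, at 19650001 to 20050000, gave 8 and 8 of 71, or 11.3% each, below the share of all shared regions both ways. Chromosome 11 (68850001 to 69850000) gave 3 (10.7%) with WT higher and 8 (28.6%) with Mbd1 KO higher of 28. The remaining stretches were nearly even. Chromosome 3 (96000001 to 96350000) gave 2 and 2 of 16, and chromosome 7 (51800001 to 53000000) gave 2 and 2 of 18. On chromosome 13 the earlier stretch gave 6 with WT higher and 4 with Mbd1 KO higher of 30, and the later gave 4 and 5 of 38. Several of these counts are small. Whether stretches differ from each other was not tested.

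The members with the widest gaps between titled groups were of middling strength. A wide gap needs a mean rank away from both ends of the scale, so this was built in. The widest with WT above was on chromosome 1 (87496417 to 87496451), with ranks of 59.2 in WT 1, 71.4 in WT 2, 9.83 in Mbd1 KO 1 and 25.1 in Mbd1 KO 2. Its scores were 18.2, 23.4, 7.46 and 12.2 in that order. Next came chromosome 9 (108689043 to 108689124) and chromosome 11 (58143825 to 58143866), whose ranks differed by at least 30.99 and 25.3 between any WT and any Mbd1 KO library. The widest with Mbd1 KO above was on chromosome 6 (29706072 to 29706166), with ranks of 18.2 in WT 1, 22.7 in WT 2, 61.6 in Mbd1 KO 1 and 64.2 in Mbd1 KO 2, followed by chromosome 19 (58005882 to 58005911) and chromosome 10 (57848550 to 57848584). These regions were picked by this gap, so the values are a description. None of the 6 lay near an assembled start, where 70 of the 889 members lay.

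The share of a list that fell in dense windows was lower in longer lists. Away from the start the windows held 1005 summits in WT 1, 1018 in WT 2, 1029 in Mbd1 KO 1 and 1073 in Mbd1 KO 2, which is 2.63%, 2.18%, 1.83% and 2.16% of those lists. The titled groups averaged 2.41 ± 0.32% for WT and 1.99 ± 0.24% for Mbd1 KO (SD over 2 libraries each; p = 0.33 by a two-sided exact permutation test), and the difference of −0.42 percentage points turned to 0.059 when grouped by the genotype field. It shrank to −0.083 with every list cut to its 38142 strongest summits and to −0.11 at a score of at least 10. With 1 library left out it was between −0.75 (without WT 2) and −0.24 (without WT 1). Near the start there were 77 summits in WT 1, 87 in WT 2, 75 in Mbd1 KO 1 and 80 in Mbd1 KO 2, and the shares averaged 0.194 ± 0.011% for WT and 0.147 ± 0.02% for Mbd1 KO (SD over 2 libraries each; p = 0.33 by the same exact test). That difference of −0.047 became −0.022 with the lists cut to equal length and −0.0063 when grouped by the genotype field (exact permutation p = 1). The numbers of summits differed little while the lists ranged from 38142 to 56382. The rule requires a summit of every library in each member, so close numbers of summits were largely built in. A lower share in a longer list follows in part from this, and the p-values do not allow for it. The mean number of summits per region was 1.001 for WT and 1.002 for Mbd1 KO away from the start, and 1 in every library near it.

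Most calls in dense windows recurred. Counting every region that started in the 134 windows, 889 of 1362 (65.3%) held all 4 libraries, 148 held 3, 121 held 2 and 204 (15%) held 1. Outside the dense windows 31.3% of 80292 autosomal regions held all 4 and 44.9% held 1. The rule chose windows by their shared regions, so this contrast was built in and is not a test. The fullest chromosome 8 window added 6 regions of 3 libraries, 5 of 2 and 4 of 1 to its 16 shared ones, and that of chromosome 9 added 1, 1 and 6 to its 28.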

How the data were processed

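The deposited files hold 1 list of summits per library. The submitters' processing notes name Bowtie, SAMtools, MACS2 and the build mm9, without versions; the sources used here do not state thresholds, read filters or an input control. Peaks were called per library, as the separate lists show. The score deposited by the authors was read as the −log10 p or q value MACS2 usually writes there; all values lie above 1.30, and which of p or q is not given. Read depth is unknown, so no counting interval was computed.

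Joining, windows and ranks were computed in Python 3.11.15 with numpy 2.4.6 and pandas 2.3.3 (figures in matplotlib 3.10.9), and tested on simulated lists. A region's score in a library was its highest summit. Group means over libraries were compared with exact permutation tests. The members and comparisons were chosen with earlier results of these data known. Named were all near-start windows, the 10 fullest others, the 5 strongest and 5 weakest members away from the start, and the 3 widest rank gaps in each direction; weakest and strongest regions of further stretches, and the most extreme windows, were named after their values were seen. Gene and promoter tables of another build (GRCm38) were not used for positions. The labels do not say what a replicate number marks, so p-values refer only to these libraries, whose differences may be technical.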

Additional observations from a re-analysis of the deposited data

How the results depend on the processing

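Joining summits within 1000 bp left 36 near-start regions, of which 0% had both Mbd1 KO ranks above both WT ranks and 47.2% the reverse; away from the start these were 9.30% and 21.6%, and over all shared regions 16.2% and 15.996%. Away from the start, a score of at least 10 left 203 regions in 34 windows, 4 or more regions per window gave 1979 in 420, and 6 or more gave 449 in 56, with 9.35% higher in Mbd1 KO. Members minus other shared regions turned to 3.25 at a score of at least 10 and to 1.02 with 4 or more. Grouped by the genotype field, the Mbd1 KO minus WT difference turned to 1.24 for the near-start rank, 0.0588 percentage points for the share of summits away from the start and −0.00122 for summits per region there; 12.9% of near-start regions were then higher in WT and 15.7% in Mbd1 KO, and 18.2% in Mbd1 KO away from the start. Leaving out each library in turn, which makes such parting commoner because 1 library meets 2, gave 34.7% to 38.3% higher in WT and 26.3% to 30.9% in Mbd1 KO away from the start, 55.7% to 70.8% and 11.1% to 18.6% near it, against 31.9% to 34.1% and 32.1% to 34.1% of all shared regions, and −0.000546 to 0.00376 for summits per region away from it. The difference in rank kept its direction in all 4, from −8.44 to −4.12 near the start and from −2.35 to −1.41 away from it.

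The next 3 alternatives were chosen after the data were seen. Ranks in the whole deposited lists, which differ in length, turned the Mbd1 KO minus WT difference to 5.20 away from the start and 2.76 near it, with 6.11% higher in WT and 28.9% in Mbd1 KO away from the start and 2.86% and 17.1% near it, against 4.72% and 33.3% of all shared regions. Deposited scores gave differences of 2.33 and 0.0151, with 9.28% and 25.03% away from the start and 12.9% and 12.9% near it, against 6.97% and 30.4%. Near-start regions higher in WT made up 28.6% without chromosome 9 and 72.7% without chromosome 11. Of the planned choices, a replicate block on the numbers in the titles gave the same differences, −6.61 and −2.01 for the ranks near and away from the start, −0.0471 and −0.416 for the shares, and 0 and 0.00122 for summits per region, with exact sign-flip permutation p = 0.5 at the least for 2 pairs; the correlation of same-numbered libraries in their deviations was 0.0656, and the labels do not say what the number marks. With 2 libraries per group the exact permutation tests used could not pass 0.05, and unknown depth limits every comparison of scores.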

Other observations

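Dense windows also occurred on the sex chromosomes, which the rule left out. Chromosome X held 18 windows with 5 or more regions of all 4 libraries, and 17 of them lay between 120100001 and 123350000, with 158 such regions. The 4 Mb from 120 to 124 Mb, bounds chosen after the data were seen, held 216 of the 487 regions of all 4 libraries on that chromosome (44.4%). Windows there held between 5 and 14 regions, and the 2 fullest started at 120300001 and 121250001. Within the 17 windows the median score was 18.81 in WT 1, 18.19 in WT 2, 16.4 in Mbd1 KO 1 and 18.18 in Mbd1 KO 2. WT 2 and Mbd1 KO 2 were nearly equal. The remaining window, at 166400001 to 166450000, held 10 regions with medians of 10.6 and 7.78 in the WT libraries and 11.7 and 12.6 in the Mbd1 KO libraries.

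On chromosome Y, 37 of 49 regions of all 4 libraries (75.5%) lay in a pair of windows, at 2750001 to 2800000 with 16 regions and at 2850001 to 2900000 with 21. Median scores over both were 21.2 in WT 1, 24.4 in WT 2, 22.9 in Mbd1 KO 1 and 22.98 in Mbd1 KO 2, and the titled groups overlapped. These values were not tested.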
